A study of Mus musculus with 17 samples.

Results

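The cholesterol and fatty acid synthesis genes of the erythroid blasts comprised 34 genes, chosen by symbol from their textbook roles with earlier results of these data known. They were taken from 26029 genes counted in the first model of leukaemic progression and 24659 in the second. All 34 were found in both count tables and passed the filter on low counts in each comparison. They were divided by role into 7 genes of the mevalonate steps (Hmgcs1, Mvk, Pmvk, Mvd, Idi1, Fdps and Acat2), 11 genes that turn farnesyl units into cholesterol (Fdft1, Sqle, Lss, Cyp51, Tm7sf2, Msmo1, Nsdhl, Hsd17b7, Ebp, Sc5d and Dhcr7), 6 regulators and carriers (Srebf1, Srebf2, Scap, Insig1, Insig2 and Stard4) and 10 genes of fatty acid synthesis, elongation and desaturation (Acly, Acaca, Fasn, Me1, Scd1, Scd2, Elovl5, Elovl6, Fads1 and Fads2).

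Cholesterol and fatty acids are both built from cytosolic acetyl-CoA. The transcription factors SREBP1 and SREBP2, encoded by Srebf1 and Srebf2, are made as membrane-bound precursors. SCAP carries them from the endoplasmic reticulum to the Golgi, where proteases release the active part, and the INSIG proteins hold SCAP back when sterols are plentiful. SREBP2 is best known for driving the genes of cholesterol synthesis and SREBP1 those of fatty acid synthesis. In erythroid cells, cholesterol and phospholipids with unsaturated fatty acids form the membrane of the future red cell.

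RNA-seq was performed on poly(A) RNA of cultured erythroid blasts from 17 mice, with 1 library per mouse. Every mouse carried the Spi1 transgene (TgSpi1), whose constitutive expression blocks erythroid differentiation, and every culture was maintained with erythropoietin (EPO). Mice are named by the ends of their sample titles, of which the plots show the number. Model 1 was on a mixed DBA2JxFVB/N strain. Its TgSpi1FA+/+ preleukaemic group held 4 mice (preleukemic_445, preleukemic_479, preleukemic_451 and preleukemic_138), the TgSpi1FA-/- preleukaemic group 3 (preleukemic_77, preleukemic_224 and preleukemic_40) and the TgSpi1FA-/- leukaemic group 3 (leukemic_26, leukemic_28 and leukemic_39), FA-/- being a homozygous deletion of Fanca, a gene of the Fanconi anaemia DNA repair pathway. Model 2 was on DBA2J and all TgSpi1FA+/+, with 4 preleukaemic (preleukemic_633, preleukemic_663, preleukemic_812 and preleukemic_837) and 3 leukaemic mice (leukemic_601, leukemic_606 and leukemic_921). Its leukaemic cells had emerged in mice that received repeated blood transfusions. Leukaemic blasts are those that grow without EPO and form tumours. The ages of the mice were not given in the labels. Values below follow these orders of mice.

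Total counts ranged from 29964576 to 40514205 per library, and the 34 genes took between 0.703% and 1.22% of them. Levels are given as CPM, read counts brought to a common library size with edgeR's TMM factors, each table on its own. Fanca, the deleted gene, was at 19 to 70 counts in the 6 TgSpi1FA-/- libraries of model 1 and at 889 to 2941 in the 4 TgSpi1FA+/+ libraries. The sample titles call preleukemic_77, preleukemic_224 and preleukemic_40 preleukaemic, which is the stage used here, whereas another label and the column names call them leukaemic. Libraries preleukemic_445 and preleukemic_479 stood apart from all other pairs of model 1: their counts differed with a chi-square of 8.53 per degree of freedom, against 114 to 372 for the other pairs within a group. The value of 8.53 is still above counting noise, but this cannot tell 2 mice from 2 libraries of 1 mouse. They were kept as 2 mice in the main fits, as labelled, and also tried as 1. A second count table of 7 of the model 1 mice did not show this likeness (350 for that pair, against 350 to 742 over all its pairs within a group).

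Summed levels of several cell type markers differed between the stages of a model in cells of the same Fanca genotype. The 12 erythroid markers were all detected in every library, and their summed level was 5900 to 7190 CPM in TgSpi1FA-/- preleukaemic and 2660 to 4780 CPM in TgSpi1FA-/- leukaemic libraries, and 5930 to 10500 against 3300 to 5820 CPM in model 2. The 6 megakaryocyte markers summed to 31.1 to 40 CPM in TgSpi1FA-/- preleukaemic and 166 to 251 CPM in TgSpi1FA-/- leukaemic libraries. In the former, 3 to 4 of them were above 3 counts, and in the latter 4 to 6. TgSpi1FA+/+ preleukaemic libraries of model 1 held 43.6 to 192 CPM and overlap the leukaemic ones. Itga2b alone made up much of the leukaemic sum, at 92.8 to 243 CPM. It was at 16.1 to 21.8 CPM in TgSpi1FA-/- preleukaemic libraries. The 6 mast cell markers summed to 3.73 to 59.1 CPM in model 2 preleukaemic and 97.8 to 155 CPM in model 2 leukaemic libraries. Of these markers, Tpsb2 was at no more than 9 counts. In TgSpi1FA+/+ preleukaemic libraries of model 1 the mast cell sum was 8.72 to 92.8 CPM, the highest in preleukemic_138. By the calls defined below, 3 of 12 tested erythroid markers fell in TgSpi1FA-/- leukaemic cells: Klf1 (−1.27 on the log2 scale), Ank1 (−0.94) and Hbb-bt (−5.94). Itga2b (3.20), 1 of 4 tested megakaryocyte markers, rose, as did Aurka (1.04), 1 of 10 proliferation markers. Lck (2.17), the 1 lymphoid marker tested, and Vwf (2.89), 1 of 2 tested stromal and endothelial markers, also rose. Of all genes tested, 13.3% were called. The other tested stromal and endothelial marker was at −5.64 and was not called. Vwf was low, at means of 0.265 CPM in TgSpi1FA-/- preleukaemic, 1.98 in TgSpi1FA-/- leukaemic and 2.70 in TgSpi1FA+/+ preleukaemic cells. Myeloid markers summed to at most 1.78 CPM and lymphoid markers to at most 8.07 CPM in any library, stromal and endothelial markers to at most 274 CPM, in preleukemic_40, and the summed proliferation markers overlapped between the stages in both models (3200 to 4640 against 3770 to 4080 CPM in TgSpi1FA-/- cells of model 1). In these bulk samples, fewer cells of a type and less RNA per cell cannot be told apart. The part of these shifts in the results below was not tested.

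Promoter windows from RefSeq (GRCm38.p6), 250 bases before to 50 after a gene start, were given for 27 of the 34 genes, some with several starts. Their letters were searched on both strands for CCAAT (the box bound by NF-Y), TCACNCCAC (the sterol regulatory element bound by SREBPs) and its shorter core CACNCCAC, CACGTG (an E-box) and GGGCGG (a GC box bound by Sp1). CCAAT was found for 14 of the 15 mevalonate and sterol genes with a window, all but Acat2, and in 37.4% of all 32851 windows, or for 41.1% of all genes. GGGCGG was also found for 14 of those 15, and in 35.7% of all windows. Among the 7 fatty acid genes with a window, 4 held CCAAT and 3 held GGGCGG. TCACNCCAC was rare, in 1.24% of all windows, and was found for Hmgcs1 only among the 27 genes. CACNCCAC was found for Hmgcs1, Acat2 and Insig1 and in 6.24% of all windows, and CACGTG for 6 genes and in 7.15%. A gene with several windows had more chances to hold a motif. These matches are a description of the letters and not of binding.

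The bases just before the RefSeq start are shown for 5 genes on the strand of the gene. Hmgcs1 and Mvk were taken for their repeated CCAAT boxes, and Insig1, a feedback regulator, because its fitted changes in the models lay furthest apart. Srebf1 was taken as the regulator that fell, and Elovl6 as the gene that was high in leukaemic cells of both models. Capitals mark CCAAT (also read as ATTGG), and in addition TCACNCCAC in Hmgcs1, and CACGTG and CACNCCAC (on the other strand) in Insig1. In Elovl6 none of the motifs was found, and GC boxes are not marked. Hmgcs1 (chr13:119690171-119690350), Mvk (chr5:114444089-114444268), Insig1 (chr5:28071292-28071411) and Elovl6 (chr3:129532266-129532385) lie on the plus strand, and the first of 3 Srebf1 windows (chr11:60222582-60222761) on the minus strand. GENCODE places the starts of Insig1 (28071363) and Elovl6 (129532355) before the RefSeq ones. The last bases shown for both, with the marked CACNCCAC of Insig1, thus lie inside the gene as GENCODE places it.
Hmgcs1: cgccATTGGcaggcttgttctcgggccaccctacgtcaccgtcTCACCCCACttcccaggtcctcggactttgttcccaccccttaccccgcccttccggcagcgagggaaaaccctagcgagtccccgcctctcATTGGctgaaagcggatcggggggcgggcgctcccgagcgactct
Mvk: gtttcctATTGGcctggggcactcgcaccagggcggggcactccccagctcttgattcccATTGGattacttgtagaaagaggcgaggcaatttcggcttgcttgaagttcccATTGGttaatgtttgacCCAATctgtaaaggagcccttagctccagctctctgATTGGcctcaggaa
Insig1: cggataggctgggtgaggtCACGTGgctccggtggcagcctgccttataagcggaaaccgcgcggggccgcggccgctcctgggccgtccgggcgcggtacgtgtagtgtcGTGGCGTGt
Srebf1: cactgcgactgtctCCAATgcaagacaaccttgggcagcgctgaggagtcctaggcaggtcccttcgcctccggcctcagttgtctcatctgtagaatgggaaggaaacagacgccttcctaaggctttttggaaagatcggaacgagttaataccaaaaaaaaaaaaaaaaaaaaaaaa
Elovl6: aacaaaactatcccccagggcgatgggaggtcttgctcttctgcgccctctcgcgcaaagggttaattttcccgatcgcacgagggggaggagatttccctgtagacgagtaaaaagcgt

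All 34 genes were transcribed in both models. Per kilobase of exon, Scd2, a stearoyl-CoA desaturase, was the most abundant in both (means of 553 CPM per kb in model 1 and 413 in model 2), followed by Acly, the ATP citrate lyase that supplies acetyl-CoA (147 and 121). The least abundant were Idi1 in model 1 (3.26) and Fdps in model 2 (3.07), both of which depended on the count table as described below. Between the mice of a model, the highest and lowest levels lay less than 2 apart on the log2 scale for 30 of the 34 genes in each model, the exceptions being Scd1, Ebp, Cyp51 and Elovl6 in model 1 and Scd1, Elovl6, Insig1 and Fads2 in model 2.

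**Figure D1:**
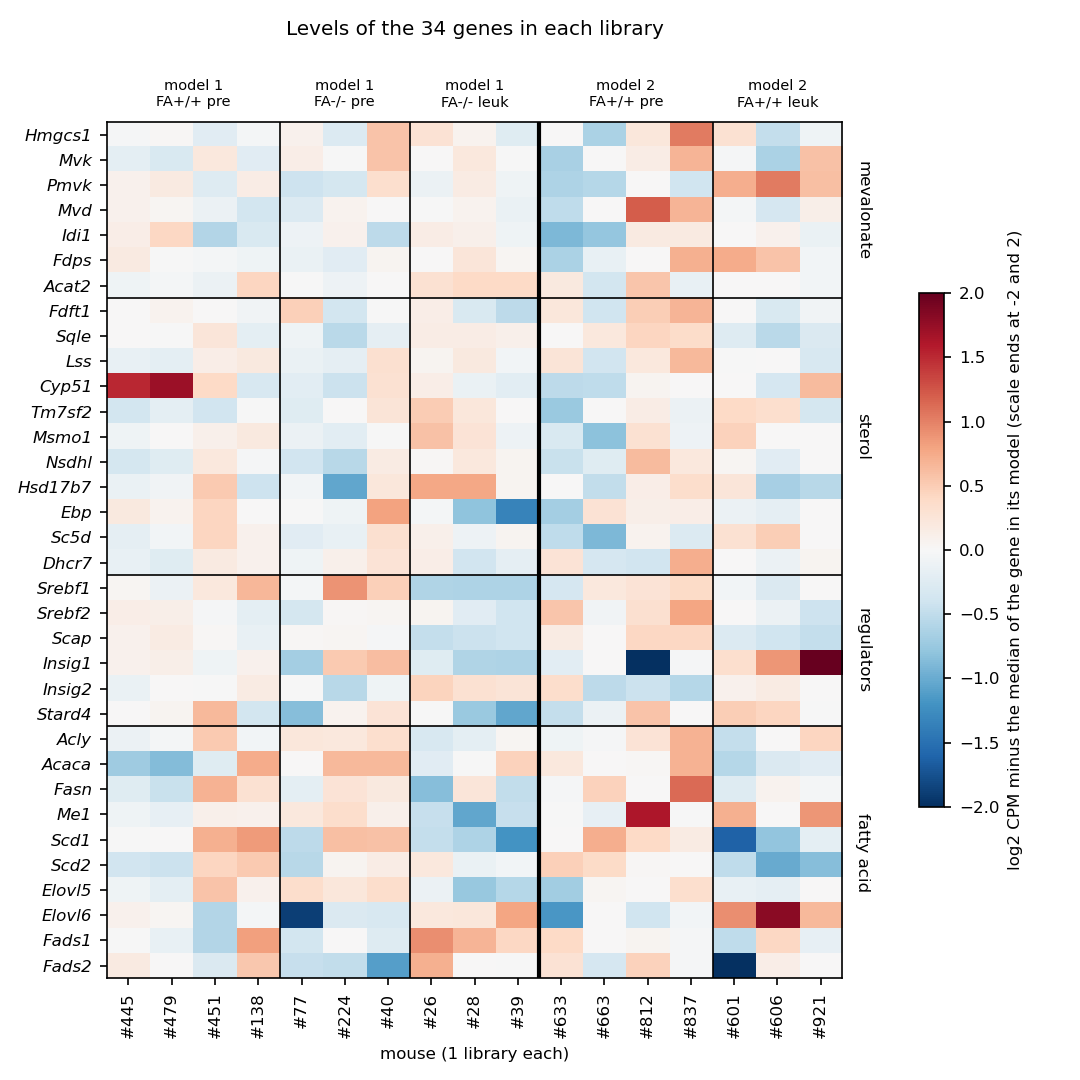
Heat map of the 34 genes (rows, by role) in the 17 libraries (columns, by group; pre, preleukaemic; leuk, leukaemic). Colour gives log2 CPM minus the median of that gene within its model; Srebf1 and Scap are below their median in all 3 leukaemic libraries of model 1, Elovl6 is above it in all 6 leukaemic libraries, and Cyp51 in preleukemic_445 and preleukemic_479, Insig1 in preleukemic_812 and leukemic_921 and Fads2 in leukemic_601 stand out.

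The first comparison asked which of these genes differed between TgSpi1FA-/- leukaemic and TgSpi1FA-/- preleukaemic cells. A gene was called when edgeR's quasi-likelihood test gave a Benjamini-Hochberg adjusted p under 0.05 over all genes tested and the fold change was at least 1.5. Of the 34 genes, 2 passed, Srebf1 and Me1, and both fell. Of all 13393 genes tested, 13.3% were called and 6.49% were called lower. At an unadjusted p under 0.05, 7 members were higher and 7 lower, 14 in all, against 32.4% of all genes tested. The groups did not overlap for 11 members (6 higher, 5 lower), against 38.7% of all genes. The median log2 fold change was 0.01 over the 34 genes and 0 over all genes tested. DESeq2's Wald test called 5 members (Srebf1, Me1 and Elovl5 lower, Elovl6 and Fads2 higher) and 19.8% of the genes to which it gave an adjusted p. By role, the called genes were 1 of 6 regulators and 1 of 10 fatty acid genes, and none of the 7 mevalonate and 11 sterol genes was called by edgeR or DESeq2, with 1 and 3 of them past an unadjusted p of 0.05 in edgeR.

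The second comparison asked what the loss of Fanca did before leukaemia, in TgSpi1FA-/- against TgSpi1FA+/+ preleukaemic cells. No member was called by edgeR or DESeq2, and 2 had an unadjusted p under 0.05 in edgeR, Fads2 and Cyp51, both lower in TgSpi1FA-/- cells. Over all genes tested, edgeR called 0.00747%, DESeq2 1.87%, and 8.65% had an unadjusted p under 0.05. The groups did not overlap for 2 members, Me1 (higher) and Fads2 (lower), against 8.53% of all genes. The median log2 fold change of the members was −0.09, with 0 over all genes.

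The third comparison took leukaemic against preleukaemic TgSpi1FA+/+ cells of model 2. edgeR called none of the members and 0% of all 12970 genes tested, 10 members (4 higher, 6 lower) having an unadjusted p under 0.05 against 19.9% of all genes. The smallest adjusted p of a member was 0.162. DESeq2 called 3 members, Pmvk and Elovl6 higher and Scd2 lower, and 3.45% of the genes to which it gave an adjusted p. Run on the genes past the low-count filter, a setting chosen after seeing the data, it called 7 members here and 7 in the first comparison, against 12.5% and 22% of the genes to which it then gave an adjusted p. The groups did not overlap for 8 members (3 higher, 5 lower), against 20.1% of all genes. The median log2 fold change was −0.16 over the members and −0.03 over all genes.

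The leukaemic changes of both models were compared with each other as an interaction in a fit of the 17 libraries. Sqle was the only member called by edgeR, which called 4.61% of 14597 genes. DESeq2 called 4 members (Sqle and Scd2 with a higher change in model 1, Pmvk and Insig1 with a lower one) and 13.5% of its genes, and on the genes past the low-count filter it also called 4 members and 14.9% of its genes. An unadjusted p under 0.05 was found for 7 members and 25.8% of all genes. Strain, library protocol, Fanca genotype and the blood transfusions of model 2 all differ between the leukaemic groups, and cannot be told apart there. The protocol took 400 ng of RNA and 8 min of fragmentation in model 1, and 300 ng and 2 min in model 2. Scap, Scd1 and Elovl6 had an unadjusted p under 0.05 and the same direction in both models, whereas Sqle and Insig1 had it with opposite directions.

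**Figure D2:**
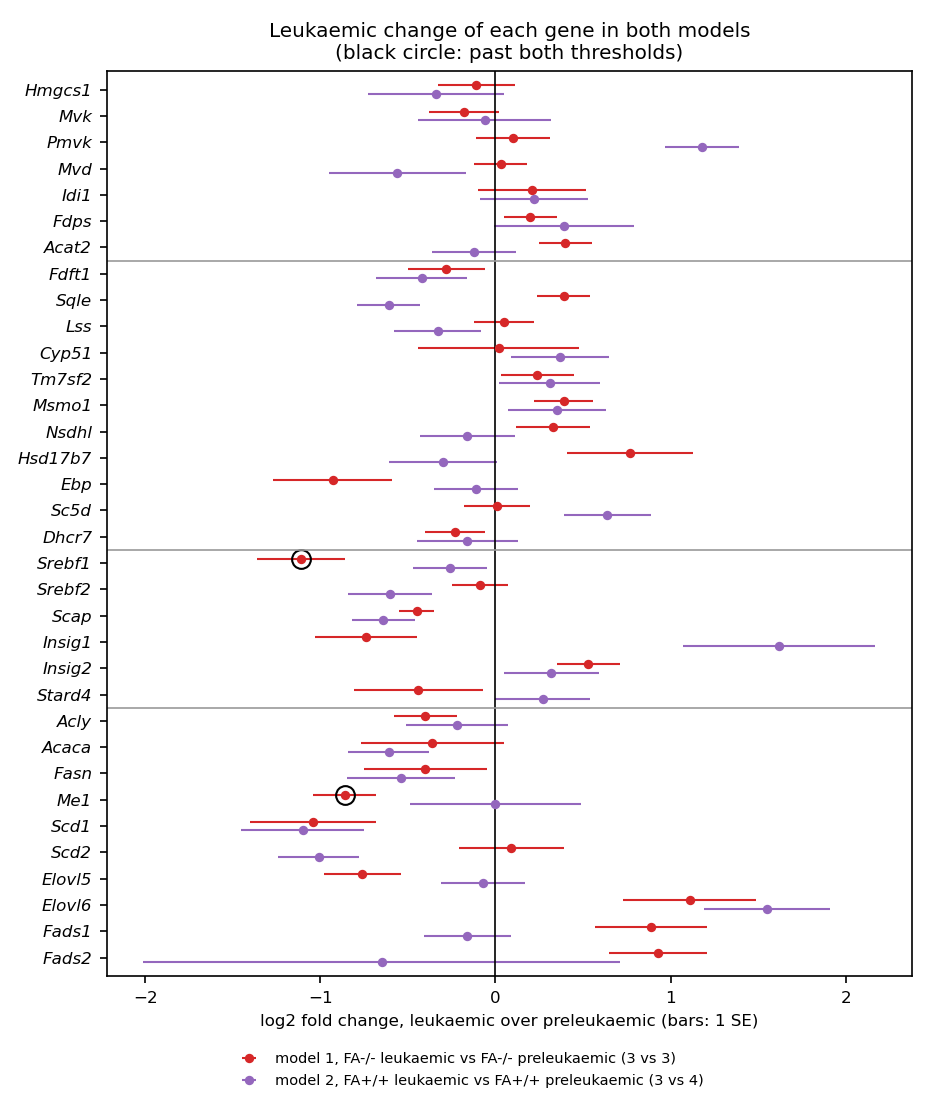
Log2 fold change of leukaemic over preleukaemic cells (x axis) for each of the 34 genes (y axis), with 1 SE as bars, in model 1 (red) and model 2 (purple). Srebf1 and Me1 of model 1 are circled as past both thresholds; Elovl6 lies to the right and Scap and Scd1 to the left of 0 in both models, and Sqle and Insig1 lie on opposite sides.

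Among the regulators, Srebf1 (chr11:60199089-60222581, minus strand), the gene of SREBP1, was at 255, 487 and 364 CPM in TgSpi1FA-/- preleukaemic and 172, 171 and 170.4 CPM in TgSpi1FA-/- leukaemic libraries. The 3 leukaemic libraries were thus almost equal in these counts and all below the preleukaemic ones, of which preleukemic_224 was the highest. The means were 369 ± 116 and 171 ± 0.608 CPM (SD, n = 3 each), a log2 fold change of −1.11 ± 0.25 (SE; edgeR adjusted p = 0.0259, 0.000978 to 0.0453 over the other settings of normalisation, filter, tool and samples fitted). Without preleukemic_224 the adjusted p of edgeR was 0.0854, without leukemic_28 0.0836, without leukemic_39 0.0709 and without preleukemic_40 0.0587, so that the call rested on several mice. TgSpi1FA+/+ preleukaemic libraries held 268, 242, 301 and 413 CPM, all above the leukaemic ones and overlapping TgSpi1FA-/- preleukaemic ones. In the second count table, the leukaemic mice were further apart, at 168, 138.5 and 77.3 CPM. They overlapped TgSpi1FA+/+ preleukaemic mice there (119.7 to 315 CPM). In model 2, Srebf1 was at 122, 178, 188 and 201 CPM in preleukaemic and 149, 127 and 155 CPM in leukaemic libraries, which overlap (log2 fold change −0.26 ± 0.21; edgeR adjusted p = 0.522). The difference between the models was −0.86 ± 0.34 on the log2 scale and did not pass in edgeR (adjusted p = 0.127). Srebf1 overlaps Rai1 on the opposite strand, and whether the counting used strand is not given in the sources used here. Rai1 itself differed by −0.05 ± 0.25 on the log2 scale between the stages of model 1.

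Averaged over all libraries of a model, Srebf2 (chr15:82147181-82205379, plus strand), the gene of SREBP2, was more abundant per kilobase than Srebf1. The means were 62.7 against 50.5 CPM per kb in model 1 and 30.8 against 28.4 in model 2. The order was the other way in TgSpi1FA-/- preleukaemic cells (62.02 against 65.5) and in leukaemic cells of model 2 (23.84 against 25.5). In model 1, Srebf2 was at 519.7, 511, 466 and 415 CPM in TgSpi1FA+/+ preleukaemic libraries. It was at 369, 480.5 and 487 CPM in TgSpi1FA-/- preleukaemic and 493, 406 and 358 in TgSpi1FA-/- leukaemic libraries. These groups overlap, and the log2 fold change of the leukaemic cells was −0.09 ± 0.16 (edgeR adjusted p = 0.747). In model 2, Srebf2 was at 281, 184, 239 and 332 CPM in preleukaemic and 192, 177 and 144 in leukaemic libraries, with leukemic_601 above the lowest preleukaemic library (log2 fold change −0.60 ± 0.24; edgeR adjusted p = 0.22).

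Scap (chr9:110333288-110384950, plus strand), the escort of both SREBPs, showed little spread within each group. It was at 135, 142, 129 and 116 CPM in TgSpi1FA+/+ preleukaemic, 129, 132 and 126 in TgSpi1FA-/- preleukaemic and 91.99, 94.3 and 96.9 in TgSpi1FA-/- leukaemic libraries. All leukaemic libraries lay below all preleukaemic ones of either genotype in these counts. Its log2 fold change was −0.45 ± 0.10, with an edgeR adjusted p of 0.0259 but a decrease of only 1.37-fold, under the threshold of 1.5, so that it was not called. In the second count table, Scap was at 49.2 to 85.0 CPM in TgSpi1FA-/- leukaemic libraries. TgSpi1FA+/+ preleukaemic libraries held 76.7 to 119.7 CPM there, so that these groups overlap. In model 2, Scap was at 68.02, 60.6, 80.6 and 80.9 CPM in preleukaemic and 50.04, 46.00 and 43.5 in leukaemic libraries, again without overlap (log2 fold change −0.64 ± 0.18; edgeR adjusted p = 0.162, 0.0216 to 0.253 over the other settings). The leukaemic change of Scap differed by 0.18 ± 0.18 between the models (edgeR adjusted p = 0.558).

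Insig1 (chr5:28071363-28078662, plus strand), which retains SCAP and is itself an SREBP target, was the member with the largest difference between the models. In model 1 it was at 94.7, 96.3, 84.2 and 94.6 CPM in TgSpi1FA+/+ preleukaemic, 56.01, 128 and 137 in TgSpi1FA-/- preleukaemic and 75.5, 58.6 and 57.99 in TgSpi1FA-/- leukaemic libraries. The leukaemic libraries overlap the TgSpi1FA-/- preleukaemic group through preleukemic_77 alone (log2 fold change −0.74 ± 0.29; edgeR adjusted p = 0.11), and without preleukemic_77 the log2 fold change was −1.04 and Insig1 was called (edgeR adjusted p = 0.019). In model 2 it was at 97.4, 113, 27.8 and 112 CPM in preleukaemic and 142, 209 and 456 in leukaemic libraries. Here the groups do not overlap, preleukemic_812 lay far below the other preleukaemic mice and leukemic_921 far above the other leukaemic ones (log2 fold change 1.62 ± 0.55; edgeR adjusted p = 0.183). Without leukemic_921 the log2 fold change of model 2 was 1.02. The difference between the models was −2.39 ± 0.65 on the log2 scale, just short of the threshold in edgeR (adjusted p = 0.0513) and past it in DESeq2 (adjusted p = 0.0106).

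Of the other 2 genes of this role, Insig2, the paralogue of Insig1, was at 18.6 to 27.2 CPM in TgSpi1FA-/- preleukaemic and 32.7 to 37.2 in TgSpi1FA-/- leukaemic libraries, without overlap but short of the threshold (log2 fold change 0.53 ± 0.18; edgeR adjusted p = 0.0802). In model 2 the log2 fold change of Insig2 was 0.32 ± 0.27 (edgeR adjusted p = 0.549). Stard4, a cytosolic sterol carrier, ranged from 142 to 459.5 CPM in model 1 and from 266 to 555 in model 2, and its groups overlapped in every comparison.

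**Figure D3:**
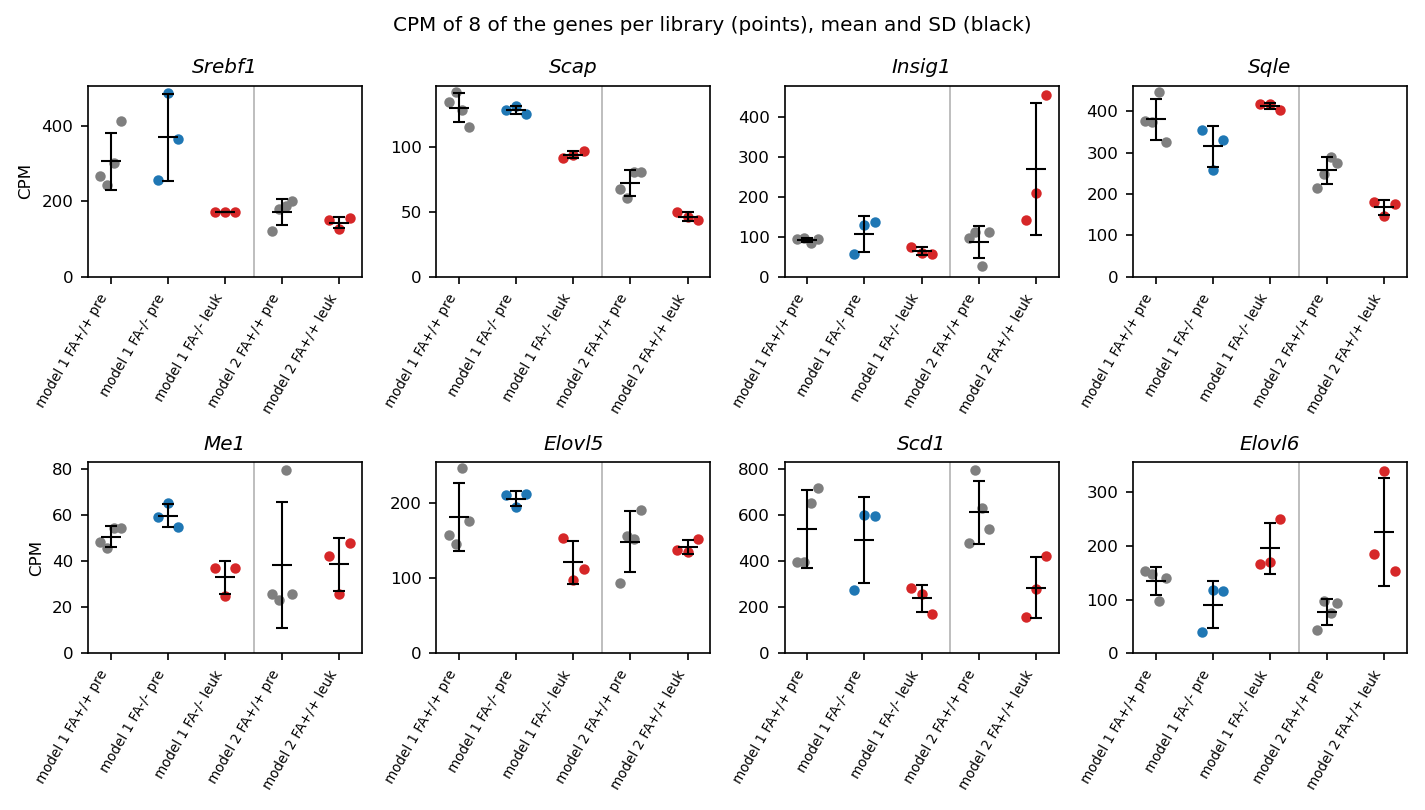
CPM of 8 of the genes (panels, y axes from 0) in each library (points) of the 5 groups (x axis), with the mean and SD in black; pre, preleukaemic; leuk, leukaemic. In TgSpi1FA-/- cells of model 1 the leukaemic libraries lie below the preleukaemic ones without overlap for Srebf1, Scap and Me1, Sqle is higher in leukaemic libraries of model 1 and lower in those of model 2, and Elovl6 is higher and Scd1 lower on average in leukaemic libraries of both.

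In the mevalonate steps, Hmgcs1 (chr13:119690379-119708260, plus strand), the cytosolic HMG-CoA synthase and a typical SREBP2 target, did not separate the groups. It was at 406, 422, 353 and 404 CPM in TgSpi1FA+/+ preleukaemic, 439, 341 and 614 in TgSpi1FA-/- preleukaemic and 505, 433 and 349 in TgSpi1FA-/- leukaemic libraries. Preleukaemic libraries of model 2 held 366, 236, 427 and 749 CPM and leukaemic ones 452, 262 and 344 CPM, preleukemic_837 being the highest of all. The log2 fold changes of the leukaemic cells were −0.11 ± 0.22 in model 1 and −0.34 ± 0.39 in model 2 (edgeR adjusted p = 0.754 and 0.667).

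Pmvk (chr3:89454541-89469013, plus strand), the phosphomevalonate kinase, was the member with the smallest p in model 2. It was at 99.9, 104, 154 and 116 CPM in preleukaemic and 255, 315 and 234 in leukaemic libraries of model 2. Each leukaemic library thus lay above the highest preleukaemic one, preleukemic_812. The means were 119 ± 24.7 (SD, n = 4) and 268 ± 41.95 CPM (SD, n = 3), a log2 fold change of 1.18 ± 0.21 with an edgeR adjusted p of 0.162, 0.000424 to 0.222 over the other settings, the low end being that of DESeq2 on the genes past the low-count filter. In model 1 it was at 114, 120.2, 89.2 and 118 CPM in TgSpi1FA+/+ preleukaemic, 79.9, 83.4 and 134 in TgSpi1FA-/- preleukaemic and 97.8, 119.7 and 99.7 in TgSpi1FA-/- leukaemic libraries, which overlap (log2 fold change 0.10 ± 0.21; edgeR adjusted p = 0.793). The difference between the models was −1.09 ± 0.30 (edgeR adjusted p = 0.0512; DESeq2 adjusted p = 0.0307).

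Mvk (chr5:114444269-114460591, plus strand), the mevalonate kinase that acts one step before, had the third smallest p of the members in the comparison of the genotypes. It was at 39.7, 36.6, 52.2 and 38.6 CPM in TgSpi1FA+/+ and 49.6, 45.1 and 67.3 in TgSpi1FA-/- preleukaemic libraries, which overlap because of preleukemic_451 (log2 fold change 0.37 ± 0.18; edgeR adjusted p = 0.608). The leukaemic libraries held 45.4, 52.3 and 44.9 CPM. Levels in model 2 were 29.4, 45.8, 50.6 and 73.3 CPM in preleukaemic and 45.2, 29.5 and 68.7 in leukaemic libraries, and no difference was detectable (log2 fold change −0.06 ± 0.38).

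The remaining mevalonate genes were not called in any comparison by edgeR or DESeq2. Mvd, the mevalonate diphosphate decarboxylase, ranged from 83.1 to 114 CPM in model 1 and from 51.2 to 167 in model 2. Acat2, a cytosolic acetoacetyl-CoA thiolase, was at 86.5 to 93.2 CPM in TgSpi1FA-/- preleukaemic and 114 to 122 in TgSpi1FA-/- leukaemic libraries without overlap (log2 fold change 0.40 ± 0.15; edgeR adjusted p = 0.109). Idi1, the isopentenyl diphosphate isomerase, and Fdps, the farnesyl diphosphate synthase, had log2 fold changes of 0.21 ± 0.31 and 0.20 ± 0.15 in model 1 and of 0.22 ± 0.31 and 0.39 ± 0.40 in model 2. Fdps overlaps Gm43738 on the same strand, so that its count is uncertain.

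In the sterol steps, Sqle (chr15:59315077-59331192, plus strand), the squalene monooxygenase and one of the rate-limiting enzymes of cholesterol synthesis, was higher in leukaemic cells of model 1 and lower in those of model 2. In model 1 it was at 377, 375, 447 and 327 CPM in TgSpi1FA+/+ preleukaemic, 356, 259 and 332 in TgSpi1FA-/- preleukaemic and 418, 418 and 404 in TgSpi1FA-/- leukaemic libraries. The leukaemic libraries lay above all TgSpi1FA-/- preleukaemic ones, though within the range of TgSpi1FA+/+ ones (log2 fold change 0.39 ± 0.15; edgeR adjusted p = 0.11). Levels in model 2 were 215, 248, 291 and 276 CPM in preleukaemic and 180.2, 148 and 177 in leukaemic libraries, all leukaemic ones being below all preleukaemic ones (log2 fold change −0.61 ± 0.18; edgeR adjusted p = 0.162). Neither change was called alone by edgeR, the one in model 2 being called by DESeq2 on the genes past the low-count filter (adjusted p = 0.0263). Their difference, 0.99 ± 0.22 on the log2 scale, was called by edgeR (adjusted p = 0.0345, 0.000463 to 0.0491 over the other settings). With a mouse left out the difference was between 0.87 and 1.10, and the call was lost without preleukemic_224 (adjusted p of edgeR = 0.0833), leukemic_28 (0.0805), leukemic_39 (0.0656), preleukemic_40 (0.0615), preleukemic_77 (0.0652), leukemic_601 (0.0531), leukemic_606 (0.0644) or leukemic_921 (0.0661).

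Cyp51 (chr5:4081145-4104746, minus strand), the lanosterol demethylase, had the second smallest p of the members in the comparison of the genotypes. It was at 1034, 1186, 478 and 289 CPM in TgSpi1FA+/+ preleukaemic, 312, 267 and 448 in TgSpi1FA-/- preleukaemic and 395, 331 and 312 in TgSpi1FA-/- leukaemic libraries. The first 2 values, of preleukemic_445 and preleukemic_479, are far above all others, and the log2 fold change of −1.13 ± 0.45 (edgeR adjusted p = 0.549) was −0.81 without preleukemic_479. In the second table the same mice held 196 and 183 CPM, within the 117 to 308 CPM of the other mice there. Akap9, which overlaps the end of Cyp51 on the opposite strand, was also high in preleukemic_445 and preleukemic_479, at 247 and 277 CPM against 36.1 to 117 CPM in the other libraries of model 1, and reads of the 2 genes cannot be told apart if strand was not used. In model 2 Cyp51 was at 244, 248, 365 and 357 CPM in preleukaemic and 353, 279.9 and 546 in leukaemic libraries (log2 fold change 0.37 ± 0.28).

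Ebp, the sterol isomerase of the last steps, was at 65.1 to 120.5 CPM in TgSpi1FA-/- preleukaemic and 27.2 to 67.3 in TgSpi1FA-/- leukaemic libraries (log2 fold change −0.93 ± 0.34; edgeR adjusted p = 0.0983), and without leukemic_26, the highest leukaemic library, it was called lower (−1.34; edgeR adjusted p = 0.0247). In the second table it was at 21.4 to 41.3 CPM in TgSpi1FA-/- leukaemic and 59.3 to 89.8 in TgSpi1FA+/+ preleukaemic libraries, without overlap. In model 2 its log2 fold change was −0.11 ± 0.24. For Msmo1, the methylsterol monooxygenase, the leukaemic log2 fold changes were 0.39 ± 0.17 (model 1) and 0.35 ± 0.28 (model 2), with overlapping groups. Sc5d, the lathosterol desaturase, had 0.01 ± 0.19 and 0.64 ± 0.25, and Hsd17b7, a sterol ketoreductase, 0.77 ± 0.36 and −0.30 ± 0.31. None of these 4 genes was called in any comparison by edgeR or DESeq2 in the fits of all libraries.

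The levels of the other sterol genes in model 1 were as follows: Fdft1, the squalene synthase, from 81.5 to 163 CPM, Lss, the lanosterol synthase, from 232 to 332 CPM, Nsdhl, a sterol dehydrogenase, from 149 to 253 CPM, Dhcr7, which makes cholesterol from its last precursor, from 140.1 to 221 CPM, and Tm7sf2, a sterol reductase, from 19.1 to 35.5 CPM. In model 2 they ranged from 110.2 to 232, 132 to 270.0, 80.6 to 169.7, 77.2 to 167 and 20.2 to 44.5 CPM. Their groups overlapped in each of the 3 comparisons. Tm7sf2 overlaps Vps51 on the same strand and Fdft1 overlaps Ctsb on the other, so that both counts are uncertain.

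In fatty acid synthesis, Me1 (chr9:86581371-86695953, minus strand), the cytosolic malic enzyme that supplies NADPH, was the other gene that fell in TgSpi1FA-/- leukaemic cells. It was at 48.2, 45.6, 54.7 and 54.3 CPM in TgSpi1FA+/+ preleukaemic, 59.3, 65.2 and 55.02 in TgSpi1FA-/- preleukaemic and 37.1, 24.8 and 37.1 in TgSpi1FA-/- leukaemic libraries. All leukaemic libraries lay below all preleukaemic ones of both genotypes in these counts. The means of TgSpi1FA-/- cells were 59.9 ± 5.11 and 33.01 ± 7.12 CPM (SD, n = 3 each), a log2 fold change of −0.86 ± 0.18 (SE; edgeR adjusted p = 0.0205, 0.000357 to 0.0628 over the other settings). The call was lost without preleukemic_224 (edgeR adjusted p = 0.0779), leukemic_28 (0.0609) or preleukemic_77 (0.054), and when TgSpi1FA+/+ libraries were left out of the fit (0.0628). In the second count table, Me1 was at 25.7 to 44.7 CPM in TgSpi1FA-/- leukaemic libraries. TgSpi1FA+/+ preleukaemic libraries held 41.1 to 100.6 CPM there, so that these groups overlap. In model 2, Me1 was at 25.7, 23.2, 79.5 and 25.7 CPM in preleukaemic and 42.3, 25.9 and 47.7 in leukaemic libraries, preleukemic_812 being the highest, and its log2 fold change was 0.00 ± 0.49. The difference between the models did not pass in edgeR (−0.87 ± 0.55; adjusted p = 0.337).

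Fasn (chr11:120805846-120824547, minus strand), the fatty acid synthase, overlapped between the groups of every comparison. In model 1 it was at 599, 523, 1148 and 878 CPM in TgSpi1FA+/+ preleukaemic, 620.1, 862 and 818 in TgSpi1FA-/- preleukaemic and 396, 842 and 506 in TgSpi1FA-/- leukaemic libraries (log2 fold change −0.40 ± 0.35; edgeR adjusted p = 0.464). In model 2 it was at 241, 335, 244 and 533 CPM in preleukaemic and 203, 256 and 236 in leukaemic libraries (log2 fold change −0.54 ± 0.31; edgeR adjusted p = 0.361). Acly had log2 fold changes of −0.40 ± 0.18 and −0.22 ± 0.29 in the leukaemic cells of models 1 and 2, without overlap in model 1 (means of 873 ± 41.6 CPM in TgSpi1FA-/- preleukaemic and 659 ± 85.5 in leukaemic libraries; SD, n = 3 each), and Acaca, the acetyl-CoA carboxylase, of −0.36 ± 0.41 and −0.61 ± 0.23. In model 2 the Acaca groups did not overlap, at 63.3 to 102 CPM in preleukaemic and 42.6 to 53.98 in leukaemic libraries. None of Fasn, Acly and Acaca was called by edgeR or DESeq2.

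The stearoyl-CoA desaturases Scd1 (chr19:44394455-44407879, minus strand) and Scd2 (chr19:44293674-44306864, plus strand), neighbours on chromosome 19 that make oleate from stearate, are the 2 desaturases of this set that act on saturated chains. Scd1 was at 396, 396, 651 and 717 CPM in TgSpi1FA+/+ preleukaemic, 276, 600.3 and 594 in TgSpi1FA-/- preleukaemic and 285, 257 and 172 in TgSpi1FA-/- leukaemic libraries. The last group overlaps the second through preleukemic_77 alone (log2 fold change −1.04 ± 0.36; edgeR adjusted p = 0.081). In model 2, Scd1 was at 479.3, 795, 631 and 539.5 CPM in preleukaemic and 156, 279 and 421 in leukaemic libraries without overlap (log2 fold change −1.10 ± 0.35; edgeR adjusted p = 0.176). Scd1 was not called by edgeR in either model, but it was in both by DESeq2 on the genes past the low-count filter (adjusted p = 0.0322 and 0.0373), and the difference between its changes was 0.04 ± 0.53.

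Scd2 was at 2286, 2201, 3994 and 4263 CPM in TgSpi1FA+/+ preleukaemic, 2034, 3106 and 3308 in TgSpi1FA-/- preleukaemic and 3430, 2723 and 2849 in TgSpi1FA-/- leukaemic libraries, which overlap (log2 fold change 0.09 ± 0.30). The values of model 2 were 3393, 3180, 2483 and 2444 CPM in preleukaemic and 1715, 1214 and 1360 in leukaemic libraries. All 3 leukaemic libraries of model 2 lay below all preleukaemic ones of that model. With each table scaled on its own, they also lay below the model 1 libraries of the first table. This did not hold for the second table, in which Scd2 ranged from 1147 to 3665 CPM in 7 model 1 mice. The log2 fold change in model 2 was −1.01 ± 0.23 (edgeR adjusted p = 0.162; DESeq2 adjusted p = 0.0212), and the difference between the models was 1.09 ± 0.38 (edgeR adjusted p = 0.0912; DESeq2 adjusted p = 0.0444).

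Elovl6 (chr3:129532355-129638495, plus strand), which extends palmitate to stearate, was higher in leukaemic libraries of both models. It was at 153, 148, 96.4 and 141 CPM in TgSpi1FA+/+ preleukaemic, 39.3, 118 and 115 in TgSpi1FA-/- preleukaemic and 166, 169.5 and 250.2 in TgSpi1FA-/- leukaemic libraries of model 1. The values of model 2 were 43.4, 97.3, 73.99 and 93.4 CPM in preleukaemic and 185, 339.8 and 152 in leukaemic libraries. All leukaemic libraries lay above all preleukaemic ones of their model in these counts. The log2 fold changes were 1.11 ± 0.38 in model 1 and 1.55 ± 0.36 in model 2, neither called by edgeR (adjusted p = 0.0817 and 0.162) and both called by DESeq2 (adjusted p = 0.0402 and 0.0259). Without leukemic_606 the log2 fold change in model 2 was 1.13, and without preleukemic_77 that of model 1 was 0.76. In the second count table of model 1, Elovl6 was at 100.8 to 172 CPM in TgSpi1FA-/- leukaemic libraries. TgSpi1FA+/+ preleukaemic libraries held 69.6 to 101.4 CPM there, so that these groups overlap slightly. Elovl6 is on the list of genes common to both models that the study chose on these samples, so that its direction is not independent evidence.

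Elovl5 (chr9:77917364-77984519, plus strand), which elongates polyunsaturated fatty acids, was at 212, 195 and 212 CPM in TgSpi1FA-/- preleukaemic and 154, 98.1 and 113 in TgSpi1FA-/- leukaemic libraries. All leukaemic libraries were lower, but the edgeR adjusted p of 0.0507 (log2 fold change −0.76 ± 0.22) was just above the threshold, whereas that of DESeq2 was 0.0464. Without leukemic_26 it was called by edgeR too (−0.96; adjusted p = 0.0248). TgSpi1FA+/+ preleukaemic libraries held 157, 146, 247 and 177 CPM and overlap the leukaemic ones. In model 2 it was at 94.3, 156, 153 and 192 CPM in preleukaemic and 137.6, 135 and 153 in leukaemic libraries, with a log2 fold change of −0.07 ± 0.24.

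The desaturases Fads1 and Fads2, which act on polyunsaturated fatty acids, were higher in TgSpi1FA-/- leukaemic than in TgSpi1FA-/- preleukaemic libraries without overlap. Fads2 (chr19:10062765-10101746, minus strand) was at 275, 272 and 178 CPM in the preleukaemic and 619.5, 384 and 377 in the leukaemic group (log2 fold change 0.93 ± 0.28; edgeR adjusted p = 0.0529, 0.0058 to 0.0788 over the other settings). TgSpi1FA+/+ preleukaemic libraries held 432, 383, 311 and 549.5 CPM, all above TgSpi1FA-/- preleukaemic ones (log2 fold change −0.80 ± 0.26; edgeR adjusted p = 0.535) and overlapping the leukaemic ones. Both comparisons share the TgSpi1FA-/- preleukaemic libraries, which were the low ones in each. Fads1 (chr19:10182888-10196877, plus strand) was at 143 to 186 CPM in TgSpi1FA-/- preleukaemic and 246 to 352 in TgSpi1FA-/- leukaemic libraries (log2 fold change 0.89 ± 0.32; edgeR adjusted p = 0.0904).

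In model 2, Fads2 was at 288, 187, 324 and 231 CPM in preleukaemic and 0.154, 258 and 235 in leukaemic libraries. The neighbours of Fads2 were looked at after the value of leukemic_601 had been seen. Leukaemic mouse leukemic_601 held 6 counts of Fads2, against 7470 to 12162 counts in each of the other 6 libraries of model 2. The same library held 33 counts of Fads3, the neighbouring desaturase gene whose start lies 60.2 kb below that of Fads2, against 408 to 1079 counts in the others. Rab3il1, 100.1 kb below, was at 1 count against 4 to 167, and the other 2 leukaemic libraries held 9 and 5. Beyond these, Fth1 (31923 counts against 24236 to 32387) and, on the other side, Tmem258 (3873 against 1947 to 4734) and Fen1 (5233 against 4739 to 8122) were within the range of the other libraries. Fads1 was at 3768 counts, just under the 4355 to 7253 of the others. Further away on that side, Cyb561a3 (616 counts against 669 to 1430), Ddb1 (17048 against 19474 to 50450) and Tkfc (200 against 202 to 736) were also below the others. So was Vwce (6 against 35 to 282), whereas Ppp1r32, Cpsf7, Sdhaf2, Tmem216 and Tmem138 on that side were within the range of the others. The log2 fold change of Fads2 in model 2, −0.65 ± 1.36, therefore rested on leukemic_601: without this mouse it was −0.06, and the other 2 leukaemic mice are given above. No cause was tested, and DNA of these cells was not analysed here.

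**Figure D4:**
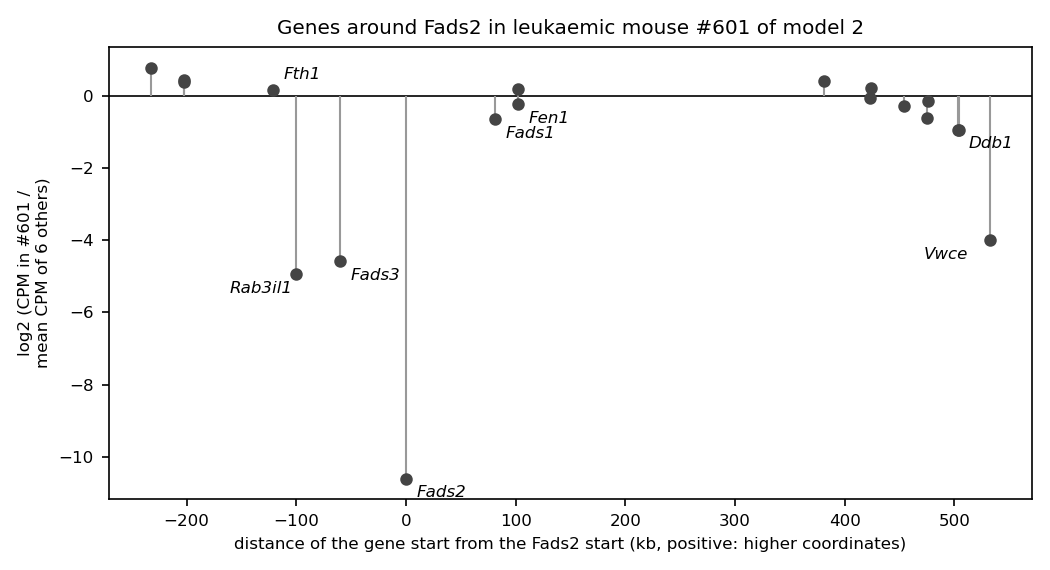
Log2 ratio of the CPM in leukaemic mouse leukemic_601 to the mean CPM of the other 6 libraries of model 2 (y axis) for genes with starts near that of Fads2 (x axis, distance in kb). Fads2 (−10.60) and Fads3 (−4.58) lie far below 0, as does Rab3il1, which is at few counts in most libraries, whereas Fth1, Fads1 and Fen1 on either side lie within 1 of it. Vwce, 532.5 kb away, is also low (6 counts against 35 to 282). Cyb561a3 (−0.62), Ddb1 (−0.94) and Tkfc (−0.95), 475.4 to 503.9 kb away, are within 1 of 0 but below all other libraries in counts.

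The second count table offered other counts of the same 7 model 1 mice (4 TgSpi1FA+/+ preleukaemic and 3 TgSpi1FA-/- leukaemic), normalised on its own. Over the 34 genes the mean CPM of the first table over that of the second had a median of 0.38 on the log2 scale, and 4 genes were more than 2-fold apart. Idi1 differed the most, at 7.88 to 15.6 CPM in the first table and 67.3 to 176 CPM in the second, for the same mice. In model 2 it was at 122 to 257 CPM. Fdps went the other way, at 35.1 to 43.9 CPM in the first table, 11.9 to 25.3 in the second and 7.01 to 18.2 in model 2. Cyp51 and Sqle were the other 2 genes, with 3.01 and 2.07 times more in the first table. Levels of these genes, Idi1 and Fdps above all, can thus not be compared between models. Between the means of TgSpi1FA-/- leukaemic and TgSpi1FA+/+ preleukaemic libraries, the direction was the same in both tables for 24 of the 34 genes and opposite for 10. Sqle was among the latter, at 413 against 381 CPM in the first table and 173 against 204 in the second, as was Nsdhl, at 234 against 206 CPM and then 111 against 151. Srebf1 and Scd1 were lower in leukaemic libraries in both, in the second table at 77.3 to 168 against 119.7 to 315 CPM for Srebf1, which overlap, and 75.01 to 192 against 252 to 696 CPM for Scd1, which do not. That contrast holds both genotype and stage, and both tables describe the same mice.

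**Figure D5:**
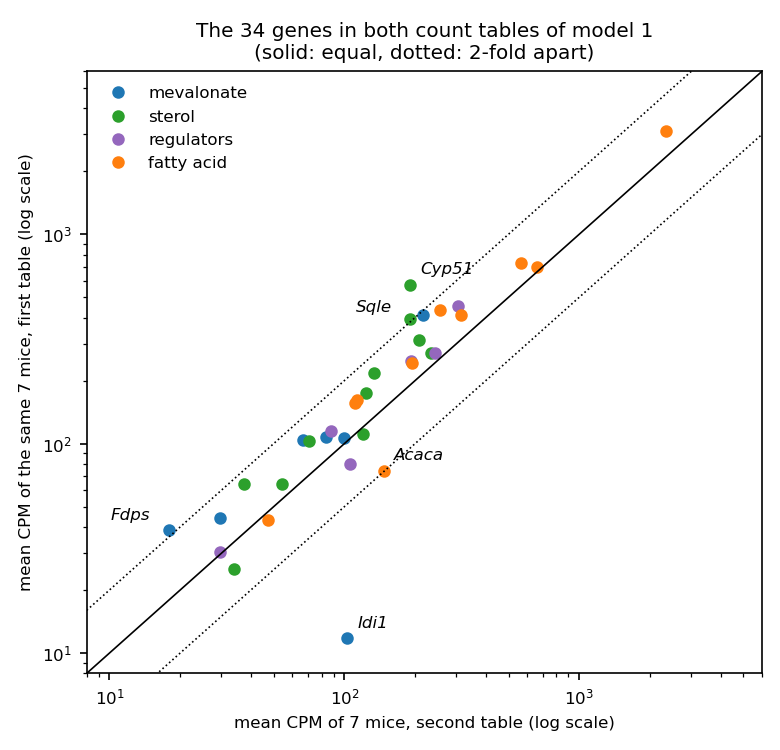
Mean CPM over the same 7 mice of model 1 in the first count table (y axis, log scale) and in the second (x axis, log scale), 1 point per gene coloured by role, with lines of equal level and of a 2-fold difference. Most genes lie above the line of equality by less than 2-fold; Idi1 lies far below it (11.8 against 103 CPM).

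Of the rest of the pathway, 5 further lists were counted in the same fits. The first comparison, in which 13.3% of all genes were called, is given first. In TgSpi1FA-/- leukaemic against TgSpi1FA-/- preleukaemic cells, edgeR called 1 of 8 tested genes of the isoprenoid branch, Pdss1, which makes the side chain of ubiquinone and rose (0.72 ± 0.17; adjusted p = 0.0299). Of 9 tested genes of sterol efflux and storage, 3 were called: Abcg1, a cholesterol exporter, rose from a mean of 8.11 to 45.7 CPM (2.49 ± 0.34; adjusted p = 0.00556), Nr1h3, the gene of LXR alpha, rose from 2 to 6 counts per library to 19 to 33 counts (2.44 ± 0.55; adjusted p = 0.0249), and Nr1h2, the gene of LXR beta, fell (−0.74 ± 0.10; adjusted p = 0.00556). Abcg1 was at 34.04 ± 8.95 CPM (SD, n = 4) in TgSpi1FA+/+ preleukaemic cells.

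Of 25 tested genes of further lipid synthesis, 3 rose and 2 fell in the same comparison, against 13.3% called over all genes. Agpat2, an acyltransferase of phospholipid and triglyceride synthesis, was at no more than 1 count in each TgSpi1FA-/- preleukaemic library. The TgSpi1FA-/- leukaemic ones held 503 to 1088 counts (edgeR adjusted p = 0.00396). TgSpi1FA+/+ preleukaemic libraries held 6 to 44 counts in model 1 and 1 to 478 in model 2. Gpam, the acyltransferase of the first step, rose (1.10 ± 0.26; adjusted p = 0.0289), and Acsl1, an acyl-CoA synthetase, fell (−1.96 ± 0.37; adjusted p = 0.0148), as did Elovl1 (−1.23 ± 0.32; adjusted p = 0.0365). Of 18 tested genes of fatty acid oxidation, none rose and 4 fell (6.49% of all genes were called lower), among them Hadha, a subunit of the mitochondrial trifunctional protein (−0.82 ± 0.14; adjusted p = 0.0107), and Acadm, the medium-chain acyl-CoA dehydrogenase (−1.24 ± 0.28; adjusted p = 0.0251); the others were Cpt1c and Slc25a20. The median log2 fold change of these 18 genes was −0.55, against 0 over all genes. In model 2, no gene of the 5 lists was called by edgeR, with 17 of 64 at an unadjusted p under 0.05 (19.9% of all genes) and 4 called by DESeq2 (3.45%), and in the comparison of the genotypes none was called by edgeR, with 8 of 67 at an unadjusted p under 0.05 (8.65% of all genes) and 2 called by DESeq2 (1.87%). Between the models, 5 of 68 genes were called by edgeR, against 4.61% of all genes: Abcg1 (3.94 ± 1.02; adjusted p = 0.0444), Agpat1 (1.28 ± 0.33; adjusted p = 0.0431), Agpat2 (adjusted p = 0.0393), Acadm (−1.79 ± 0.44; adjusted p = 0.0402) and Decr1 (−2.88 ± 0.74; adjusted p = 0.0444).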

How the data were processed

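RNA was measured by stranded poly(A) RNA-seq in 17 cultures of erythroid blasts, 1 per mouse. The authors deposited raw read counts per Ensembl gene, without normalisation. Their processing notes name bcl2fastq 2.17.1.14, STAR 2.5.3a, HTSeq 0.6.1p1 and mm10. The annotation release and the strand setting of the counting are not given in the sources used here. One table held the 10 libraries of model 1 and another the 7 of model 2, of which an identical copy was not used. A further table of 7 model 1 mice served as a check of levels. Stages were taken from sample titles.

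Counts were filtered with filterByExpr, scaled with TMM and tested with edgeR 4.0.16 (R 4.3.3, quasi-likelihood) over all genes, in 1 fit of 3 groups for model 1, 1 of 2 groups for model 2 and 1 of 17 libraries for the interaction, which took the genes found in both tables. p-values were adjusted by the Benjamini-Hochberg method, and calls needed an adjusted p under 0.05 and a fold of 1.5. Alternatives were DESeq2 1.42.0, other size factors and filters, near-alike libraries summed, fewer groups, and each mouse left out. The tests were first tested on simulated counts. Precision is limited by 3 or 4 mice per group rather than by depth, which ranged from 29964576 to 40514205 counts. The 34 genes, the pathway and marker lists and the rule for printed values were chosen with earlier results of these data known. Values in every library are printed for genes called in any comparison, for the 4 with the smallest p in each comparison within a model, and for 9 regulators and steps best known as SREBP targets. Of the other lists, at most 4 called genes per comparison are named, by smallest p. One result of these lists is not reported here. Fads2 in model 2 and its neighbours were added after their values were seen. Gene positions are those of GENCODE M21 (GRCm38).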

Additional observations from a re-analysis of the deposited data

Results flagged for a closer look

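Within the groups of 4 mice, 6 of 68 gene and group combinations had a library whose gap to the nearest of the others, relative to the range, exceeded the 95% critical value of Dixon's test. Independent and normally distributed values would give about 1 in 20, or 3.4. The genes share the same mice, and preleukemic_445 and preleukemic_479 were nearly alike. The 6 can thus not be judged against 3.4. Acly was at 1046 CPM in TgSpi1FA+/+ preleukaemic preleukemic_451 of model 1, against 676 to 712 CPM in the other 3 mice. Insig1 was at 84.2 CPM in the same mouse, against 94.6 to 96.3 CPM. Acat2 was at 124.7 CPM in preleukemic_138, against 85.2 to 89.5 CPM. In model 2, Insig2 was at 52.7 CPM and Fads1 at 183 CPM in preleukemic_633, against 27.7 to 30.4 CPM and 136 to 143 CPM in the others. Me1 was at 79.5 CPM in preleukemic_812, against 23.2 to 25.7 CPM. leukemic_601, described above for Fads2, was in a group of 3, to which the test was not applied.

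The leukaemic change of Sqle differed between the models by an interaction test (0.99 on the log2 scale; edgeR adjusted p = 0.0345). Sqle was higher in 3 of 3 TgSpi1FA-/- leukaemic mice than in any TgSpi1FA-/- preleukaemic mouse, and lower in 3 of 3 leukaemic mice of model 2 than in any preleukaemic one. Groups without overlap were found for 38.7% of all genes in the former comparison and 20.1% in the latter. The call was lost with any of several mice left out, as given above. In the second count table, the mean of Sqle was lower in TgSpi1FA-/- leukaemic (173 CPM) than in TgSpi1FA+/+ preleukaemic libraries (204 CPM).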

How the results depend on the processing

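With DESeq2's Wald test in place of edgeR, 5 of the 34 genes were called in TgSpi1FA-/- leukaemic against preleukaemic cells (2 with edgeR), 3 in model 2 (0) and 4 between the models (1). On the genes past the low-count filter, a setting chosen after seeing the data, DESeq2 called 7, 7 and 4, and 2923, 1197 and 2116 of all genes. With a filter of 1 CPM in 3 libraries, edgeR called 3 between the models (Sqle, Pmvk and Insig1). With each mouse left out in turn, the number called ranged from 0 (without preleukemic_224 or leukemic_28) to 4 (without leukemic_26) in TgSpi1FA-/- leukaemic cells, from 0 (without preleukemic_77, preleukemic_224, preleukemic_40, leukemic_28, leukemic_39, leukemic_601, leukemic_606 or leukemic_921) to 4 (without preleukemic_812) between the models, and was 0 throughout in model 2 and between the genotypes. Over all genes, calls in TgSpi1FA-/- leukaemic cells numbered 1782, 3099 with DESeq2, and 414 (without leukemic_28) to 2319 (without leukemic_26) with a mouse left out. They numbered 1242 of 13344 with preleukemic_445 and preleukemic_479 summed, and 1205 of 12794 with TgSpi1FA+/+ libraries left out of the fit. The members called were Srebf1 and Me1 in the former and Srebf1 and Fads1 in the latter. The share of 13.3% given above is thus that of the main fit. Calls between the models numbered 673, 2037 with DESeq2, 279 without a low-count filter, 303 with preleukemic_445 and preleukemic_479 summed and 1 (without leukemic_28) to 1359 (without preleukemic_812) with a mouse left out. Calls between the genotypes numbered 1 and 256 with DESeq2, and calls in model 2 0 and 470 with DESeq2.

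Among the named genes recomputed under the alternatives, the directions that turned did so with a mouse left out. Idi1, which was not among them, was at a log2 difference of −0.02 between the models with edgeR and 0.04 with DESeq2. With a mouse left out, the log2 fold change ranged from −0.19 to 0.19 for Fasn, −0.02 to 0.40 for Hmgcs1, −0.01 to 0.52 for Insig1, −0.32 to 0.14 for Scd1, −0.32 to 0 for Scd2 and −0.17 to 0.01 for Srebf2 between the genotypes. In TgSpi1FA-/- leukaemic cells it ranged from −0.28 to 0.13 for Hmgcs1, −0.08 to 0.22 for Scd2 and −0.22 to 0.04 for Srebf2, and in model 2 from −0.55 to 0.04 for Hmgcs1. Between the models it ranged from −0.23 to 0.34 for Fasn, −0.19 to 0.45 for Hmgcs1 and −0.26 to 0.45 for Scd1. The cause was not tested. No paired analysis was possible because the groups share no replicate numbers.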
